A study of Mus musculus with 6 samples.

Results

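The genes described here are 44 genes of the cell cycle and of DNA replication, chosen by name: 18 that act around DNA replication, 23 that act in mitosis, and Ccnd1, Stmn1 and Hmgb2. Of these, 38 were matched by symbol among the 11881 genes of the count table (15 replication genes, 20 mitotic genes and the other three). The other 6 (Ccne1, E2f1, Cdc6, Cdk1, Plk1 and Ube2c) were not analysed here. The RNA came from microglia, the resident macrophages of the brain, which had been sorted from the hippocampus as CD11b-positive cells with low CD45. All mice were male and between 17 and 21 days of age. There were 3 mice labelled WT (wild type) and 3 labelled Mll5+/-, heterozygous for Mll5 (now Kmt2e, a gene of the MLL family), with 1 RNA-seq library per mouse. The sources used here give neither the strain nor how the Mll5 copy was disrupted. They do not say whether the mice shared litters or were sorted together.

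A cell that divides first commits in G1 through cyclins D and E, which free the E2F transcription factors. E2F then switches on the genes that license origins, make deoxynucleotides and copy DNA in S phase. Later, cyclin B with its kinase, the Aurora and Polo-like kinases and the kinesins of the spindle carry the cell through mitosis, and the anaphase-promoting complex ends it. Microglia multiply in the first weeks after birth and then divide slowly. The genes are given below in that order of action. A level is in CPM, the count scaled to a common library size, by the TMM method. It is not divided by gene length, so that a gene is compared between libraries and not with another gene. A log2 fold change is the level under the Mll5+/- label minus that under the WT label, and values are given in the order of replicates 1, 2 and 3.

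E2F letters are known from promoters of S phase genes, and the CHR with NF-Y boxes from promoters of mitotic genes. A few promoters are printed here to show these letters. RefSeq promoter windows (GRCm38.p6, 250 bases before to 50 after the start) were matched for 35 of the 44 genes, in 38 windows. The E2F motif was searched as TTTCCCGC, TTTCGCGC, TTTGCCGC or TTTGGCGC, the CHR (cell cycle genes homology region) as TTTGAA, and the NF-Y box as CCAAT, each on both strands. E2F letters were in 6 of 17 replication windows (35.3%), in 1 of 20 mitotic windows and in 2.26% of all 32851 windows. CHR letters were in 2 replication windows (11.8%), in 15 mitotic windows (75.0%) and in 17.9% of all windows. The NF-Y box was in 12 replication windows (70.6%), in 18 mitotic windows and in 37.4% of all windows. A match is a description of letters and was not tested as a binding site. E2F matches on opposite strands could share bases, as they do in Mcm5 and Mcm6.

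**Figure D1:**
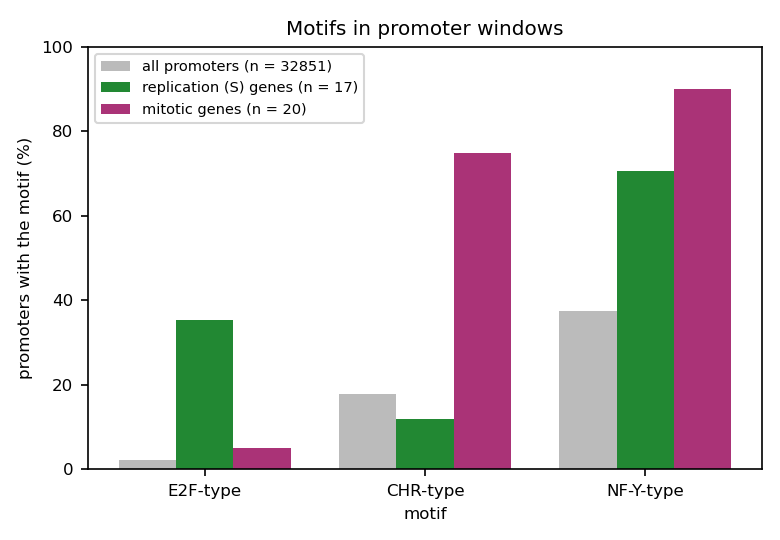
Share of promoter windows (vertical axis, percent) that hold each of 3 motifs, for all windows, for replication genes and for mitotic genes. E2F letters reach 35.3% in replication genes and CHR letters 75.0% in mitotic genes, against 2.26% and 17.9% of all windows.

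The upstream 250 bases of 5 genes follow, 5′ to 3′ on the strand of the gene, with matches on either strand in capitals. They were picked after the matches were seen. Mcm5 (chr8:75109259-75109508, plus strand) and Mcm6 (chr1:128359706-128359955, minus strand) show E2F letters. Ccnb2 (chr9:70421555-70421804, minus strand) and Cdc20 (chr4:118437344-118437593, minus strand) show CHR letters with NF-Y boxes. In Ccnb2 the printed CHR match lies ahead of the NF-Y boxes, and 1 of its 2 matches in the window was not within the printed bases. Rrm1 (chr7:102441445-102441694, plus strand) is shown because it had the smallest p of the set in the expression data; NF-Y boxes alone were matched in it.
Mcm5: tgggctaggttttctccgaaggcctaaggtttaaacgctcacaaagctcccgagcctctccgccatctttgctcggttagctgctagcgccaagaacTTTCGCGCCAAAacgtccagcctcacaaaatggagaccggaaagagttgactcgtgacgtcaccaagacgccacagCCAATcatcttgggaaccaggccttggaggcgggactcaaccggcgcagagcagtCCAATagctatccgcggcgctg
Mcm6: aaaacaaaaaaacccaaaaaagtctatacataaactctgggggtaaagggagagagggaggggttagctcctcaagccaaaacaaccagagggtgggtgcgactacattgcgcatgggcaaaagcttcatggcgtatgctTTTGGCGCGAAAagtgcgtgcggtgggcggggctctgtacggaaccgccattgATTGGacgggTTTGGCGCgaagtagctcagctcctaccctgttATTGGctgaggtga
Ccnb2: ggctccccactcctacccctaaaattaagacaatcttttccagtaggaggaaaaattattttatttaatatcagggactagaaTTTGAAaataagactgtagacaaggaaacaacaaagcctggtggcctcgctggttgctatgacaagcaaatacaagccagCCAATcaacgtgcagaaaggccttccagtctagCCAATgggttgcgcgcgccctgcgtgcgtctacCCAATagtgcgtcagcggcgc
Cdc20: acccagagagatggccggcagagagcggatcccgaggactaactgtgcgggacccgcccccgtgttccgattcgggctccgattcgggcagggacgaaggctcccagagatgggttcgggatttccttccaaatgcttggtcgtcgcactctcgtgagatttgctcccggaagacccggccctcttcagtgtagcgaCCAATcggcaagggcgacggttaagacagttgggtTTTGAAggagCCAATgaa
Rrm1: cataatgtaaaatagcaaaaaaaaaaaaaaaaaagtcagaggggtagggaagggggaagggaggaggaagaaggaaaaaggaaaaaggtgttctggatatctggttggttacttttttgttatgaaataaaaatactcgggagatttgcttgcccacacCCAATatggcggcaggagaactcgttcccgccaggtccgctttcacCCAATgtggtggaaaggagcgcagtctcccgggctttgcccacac

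The libraries held between 21075570 and 29730400 counts, and Pearson's r of log2 CPM between any pair of libraries, a description across genes, ran from 0.757 to 0.841. Kmt2e, the targeted gene, had 480, 378 and 688 CPM under the WT label and 648, 298 and 513 CPM under the Mll5+/- label. Its groups overlapped (log2 fold change -0.08, SE 0.314), so its whole-gene count did not check the labels, and genotypes are named as the labels give them. All 10 microglial markers were counted in every library, with sums between 8957 and 13209 CPM (WT) and between 7360 and 8334 CPM (Mll5+/-). P2ry12 had 4269, 1366 and 5499 CPM under the WT label and 1115, 1232 and 1087 CPM under the Mll5+/- label (DESeq2 adjusted p = 0.0357, edgeR adjusted p = 0.9995). It was the 1 microglial marker lower without overlap, and Tmem119 was the 1 higher without overlap. Log2 fold changes of the 10 were positive for 4 and negative for 6. Of the markers of other cells, those of border macrophages (6 of 8 matched) summed to between 265 and 328 CPM (WT) and to between 369 and 692 CPM (Mll5+/-). Those of neural progenitors and immature neurons (5 of 14 matched, mostly Sox4) summed to between 350.47 and 461 CPM and to between 289 and 350.82 CPM. Oligodendrocyte lineage markers (8 of 13 matched) summed to between 162 and 188 CPM and to between 106 and 141 CPM. Astrocyte markers (8 of 12 matched) summed to between 398 and 568 CPM and to between 268 and 554 CPM, and Gja1, the gap junction protein connexin 43, and Plpp3 did not overlap between the genotypes. Gja1 had 22.7, 23.2 and 28.6 CPM under the WT label and 3.51, 6.71 and 1.75 CPM under the Mll5+/- label (DESeq2 adjusted p = 0.0425, edgeR adjusted p = 0.9995). Plpp3 had 15.5, 11.5 and 23.0386 CPM against 3.39, 4.39 and 5.62 CPM (DESeq2 adjusted p = 0.433). They are named for that difference and were the only 2 of the 8 astrocyte markers without overlap. Log2 fold changes of the 8 were positive for 3 and negative for 5. Slc1a3, the astrocyte marker of highest CPM, overlapped, with 387, 292 and 493 CPM against 240, 461 and 270 CPM. The sums of microglial, border macrophage and oligodendrocyte lineage markers did not overlap between the genotypes, and P2ry12 weighed heavily on the microglial ones. Taken singly, none of the 5 tested border macrophage markers or the 7 tested oligodendrocyte lineage markers separated the genotypes. The sums of all other marker lists overlapped, also those of neurons, of blood leukocytes and of endothelial and mural cells. The part of any of these cells in the results on cell cycle genes was not tested. In bulk RNA, a different share of cycling cells and a different level of cell cycle transcripts per cell cannot be told apart.

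Of the 38 matched genes, 35 passed the low-count filter and were tested with 10832 genes in all. None of the 35 passed an adjusted p of 0.05 (edgeR, smallest adjusted p 0.9995), and 0 (0%) of all tested genes did. At an unadjusted p under 0.05 there were 2, Rrm1 at a higher and Ccne2 at a lower level under the Mll5+/- label. That is 2 of 35, where 2.88% of all tested genes reached it (1.36% higher and 1.52% lower). DESeq2 called 0 of the 35, with the same 2 genes under an unadjusted p of 0.05 (3.88% of all genes), and 18 genes (0.166%) in all. Limma-voom also called 0, with 3 under 0.05 (Rrm1, Mcm7 and Nusap1, beside 4.24% of all genes). The genotypes did not overlap for 3 of the 35, Rrm1, Ccne2 and Birc5, beside 9.32% of all tested genes. Log2 fold changes were negative for 25 of the 35, with a median of -0.30, while 48.2% were negative among all genes tested and their median was 0.02.

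**Figure D2:**
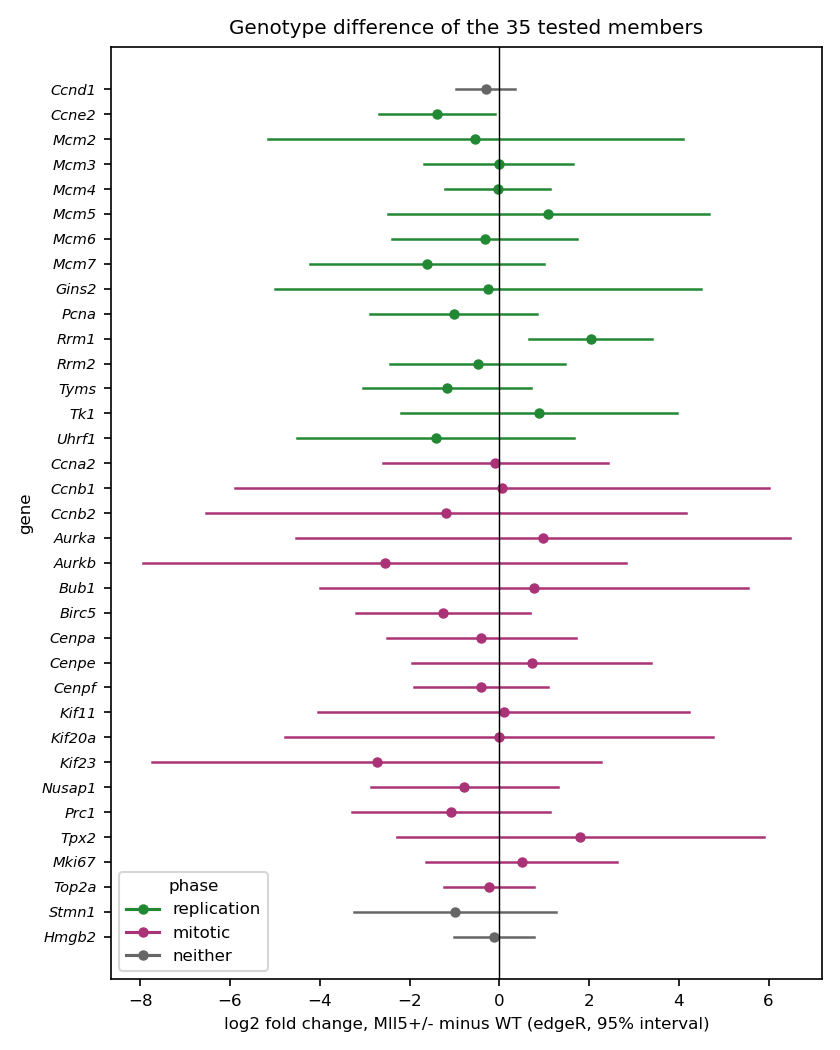
Log2 fold change (horizontal axis, Mll5+/- minus WT) of the 35 tested genes from edgeR, with the 95% interval as a line, coloured by phase. The intervals of Rrm1 (0.67 to 3.40) and Ccne2 (-2.68 to -0.09) lie on 1 side of 0, and those of the other genes cross it.

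Of the G1 cyclins, Ccnd1 and Ccne2 were measured. Ccne2 encodes cyclin E2, which drives entry into S phase with its kinase CDK2, and lies on chromosome 4 from 11191354 to 11204779 (mm39). Its level was 21.2, 12.4 and 17.3 CPM under the WT label and 4.81, 8.46 and 6.19 CPM under the Mll5+/- label. Every library labelled WT was above every library labelled Mll5+/-. On the log2 scale the difference was -1.38 (SE 0.569, edgeR unadjusted p = 0.0385, adjusted p = 0.9995). The unadjusted p was 0.0575 in limma-voom. In edgeR it was 0.136 without WT replicate 1, 0.0739 without WT replicate 3, 0.0908 without Mll5+/- replicate 1 and 0.0564 without Mll5+/- replicate 3.

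The annotated span of Ccne2 overlaps that of Ints8, a subunit of the Integrator complex, over 5622 bases, and the sources used here do not say whether strand was used in counting. Ints8 had 31.5, 46.9 and 21.8 CPM under the WT label and 17.4, 22.8 and 9.07 CPM under the Mll5+/- label (log2 fold change -1.02, edgeR unadjusted p = 0.0713). Reads of the shared stretch could have gone to either gene, so the level of Ccne2 is uncertain, and the part of Ints8 in it was not tested. The same holds of Ccnd1, Mcm7, Cdc45, Gins2, Tk1, Ccna2, Cdc20, Kif20a, Nusap1 and Prc1, whose spans also overlap that of another listed gene. Ccnd1, cyclin D1, which answers growth signals with CDK4 and CDK6, had 153, 169 and 101 CPM against 143, 87.5 and 113 CPM (libraries labelled WT first). Its groups overlapped (log2 fold change -0.30, SE 0.288, edgeR unadjusted p = 0.325).

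Origin licensing and the replication fork were covered by 9 matched genes, of which Cdc45 did not pass the filter. Mcm2 to Mcm7 encode the 6 subunits of the ring-shaped helicase that unwinds DNA. Mcm4 had 31.1, 24.8 and 19.2 CPM under the WT label and 13.1, 19.1 and 40.9 CPM under the Mll5+/- label. Mcm3 had 28.5, 39.3 and 7.63 CPM against 8.17, 44.6 and 22.1 CPM. The genotypes overlapped for both genes, and their log2 fold changes were -0.04 (SE 0.511) and -0.01 (SE 0.732).

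Mcm6 had 6.81, 6.504 and 23.2 CPM under the WT label and 2.998, 21.7 and 4.49 CPM under the Mll5+/- label. Each genotype thus held 1 library well above its other two. Mcm7 had 14.3, 18.6 and 17.6 CPM against 15.1, 0.527 and 0.898 CPM, so that Mll5+/- replicate 1 was at the WT level and the other two were near 0. The log2 fold change of Mcm7 was -1.604 (SE 1.15, edgeR unadjusted p = 0.197). Without Mll5+/- replicate 1 it was -4.57 (edgeR unadjusted p = 0.000658, adjusted p = 0.896). This run is named after the values were seen and leaves out the library at the WT level, so its small p is no support. Over all libraries, limma-voom, which weights them, gave an unadjusted p = 0.0272. DESeq2 gave no p for this gene.

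Mcm2 and Mcm5 had libraries without any count. Mcm2 had 285, 0 and 130 counts under the WT label and 149, 156 and 0 counts under the Mll5+/- label. Mcm5 had 145, 0 and 258 counts against 513, 43 and 218 counts. WT replicate 2 thus had no count of either gene, and Mll5+/- replicate 3 had none of Mcm2. The 6 subunits peaked in 6 different libraries: Mcm2 in WT replicate 1, Mcm7 in WT replicate 2, Mcm6 in WT replicate 3, Mcm5 in Mll5+/- replicate 1, Mcm3 in Mll5+/- replicate 2 and Mcm4 in Mll5+/- replicate 3. The level summed over the 6 was 98.6, 89.2 and 81.1 CPM under the WT label and 65.5, 92.9 and 78.6 CPM under the Mll5+/- label.

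**Figure D3:**
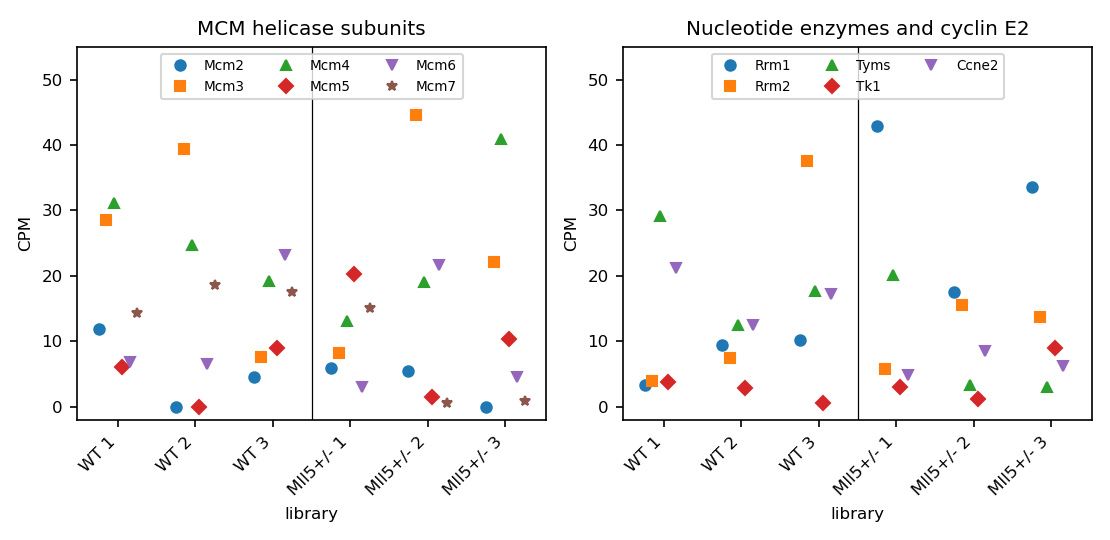
Level in CPM (vertical axis) of the 6 MCM subunits (left) and of 4 enzymes of nucleotide supply with Ccne2 (right) in each of the 6 libraries, 1 point per gene and library; points of a library are shifted sideways so that they can be seen. No MCM subunit separates the genotypes, whereas Rrm1 lies between 17.5 and 43.0 CPM under the Mll5+/- label and at most at 10.2 CPM under the WT label.

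Pcna, the sliding clamp of the replicative polymerases, had 17.6, 23.5 and 41.1 CPM under the WT label and 21.5, 17.5 and 1.56 CPM under the Mll5+/- label. Mll5+/- replicate 3 stood apart as the 1 low library (log2 fold change -1.02, SE 0.822, edgeR unadjusted p = 0.249). Gins2, a subunit of the GINS complex that joins the helicase, had 244, 306 and 0 counts against 193, 307 and 0 counts, so that 1 library of each genotype had none. Cdc45, the third partner of that helicase, had 4, 61 and 55 counts under the WT label and 0, 2 and 0 counts under the Mll5+/- label. The genotypes of Cdc45 did not overlap, but it did not pass the filter. Tested without that filter, it had an edgeR unadjusted p = 0.0562 and an adjusted p = 0.97498. Mll5+/- replicate 3 was thus the lowest library, or tied for it, for Pcna, Gins2, Cdc45 and Mcm2, and the highest for Mcm4.

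Deoxynucleotide supply held the gene of smallest p. Rrm1 encodes the large, catalytic subunit of ribonucleotide reductase, the enzyme that makes deoxyribonucleotides, and lies on chromosome 7 from 102090902 to 102118978 (mm39). Its level was 3.26, 9.47 and 10.2 CPM under the WT label and 43.0, 17.5 and 33.6 CPM under the Mll5+/- label. All 3 libraries labelled Mll5+/- were above all 3 labelled WT, with means of 31.3 ± 12.9 and 7.63 ± 3.80 CPM (SD, n = 3 each). On the log2 scale the difference was 2.04 (SE 0.602, 95% interval 0.67 to 3.40, edgeR unadjusted p = 0.00833, adjusted p = 0.9995). In DESeq2 the adjusted p was 0.260 and in limma-voom 0.958. The unadjusted p in edgeR stayed between 0.00636 and 0.0400 when any 1 library was left out.

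Rrm2, the small subunit of the same enzyme, whose level is limiting in cycling cells, had 3.89, 7.50 and 37.5 CPM under the WT label and 5.76, 15.5 and 13.8 CPM under the Mll5+/- label. Its groups overlapped, and WT replicate 3 was the highest (log2 fold change -0.48, SE 0.859). The difference between the fold changes of both subunits was not tested. Tyms, which makes thymidylate, had 29.2, 12.5 and 17.7 CPM against 20.2, 3.37 and 2.98 CPM. On the log2 scale the difference was -1.16 (SE 0.822, edgeR unadjusted p = 0.191), and without Mll5+/- replicate 1 it was -2.65 (edgeR unadjusted p = 0.00633, adjusted p = 0.9993). The library left out was again the 1 labelled Mll5+/- at the WT level, so this p is no support either. Tyms and Mcm7 thus shared a pattern in which Mll5+/- replicates 2 and 3 were below all other libraries. Uhrf1, Birc5 and, by a narrow margin, Pcna showed it too.

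Tk1, the thymidine salvage kinase, had 3.76, 2.77 and 0.486 CPM under the WT label and 2.96, 1.12 and 8.93 CPM under the Mll5+/- label. Its span lies under that of the predicted gene Gm20708 over all 10567 bases of Tk1, so that its counts are uncertain. Uhrf1, which brings DNA methylation to newly copied DNA, had 5.23, 1.15 and 6.63 CPM against 3.20, 1.02 and 0.662 CPM. Both genes had overlapping groups, with log2 fold changes of 0.89 (SE 1.35) and -1.41 (SE 1.36). Taking the 14 tested replication genes, 11 had negative and 3 positive log2 fold changes, with a median of -0.40.

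The mitotic genes were sparser. Of the 18 tested, 9 had no count in at least 1 library, beside 15.95% of all tested genes. Their median log2 fold change was -0.16, with 11 negative and 7 positive, none with an unadjusted p under 0.05 in edgeR or DESeq2, and 1, Nusap1, in limma-voom. The median turned to 0.07 without WT replicate 3 and was -0.94 without Mll5+/- replicate 3. The lowest levels of several of these genes sat in 1 library, as the heat map of all 38 genes shows.

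**Figure D4:**
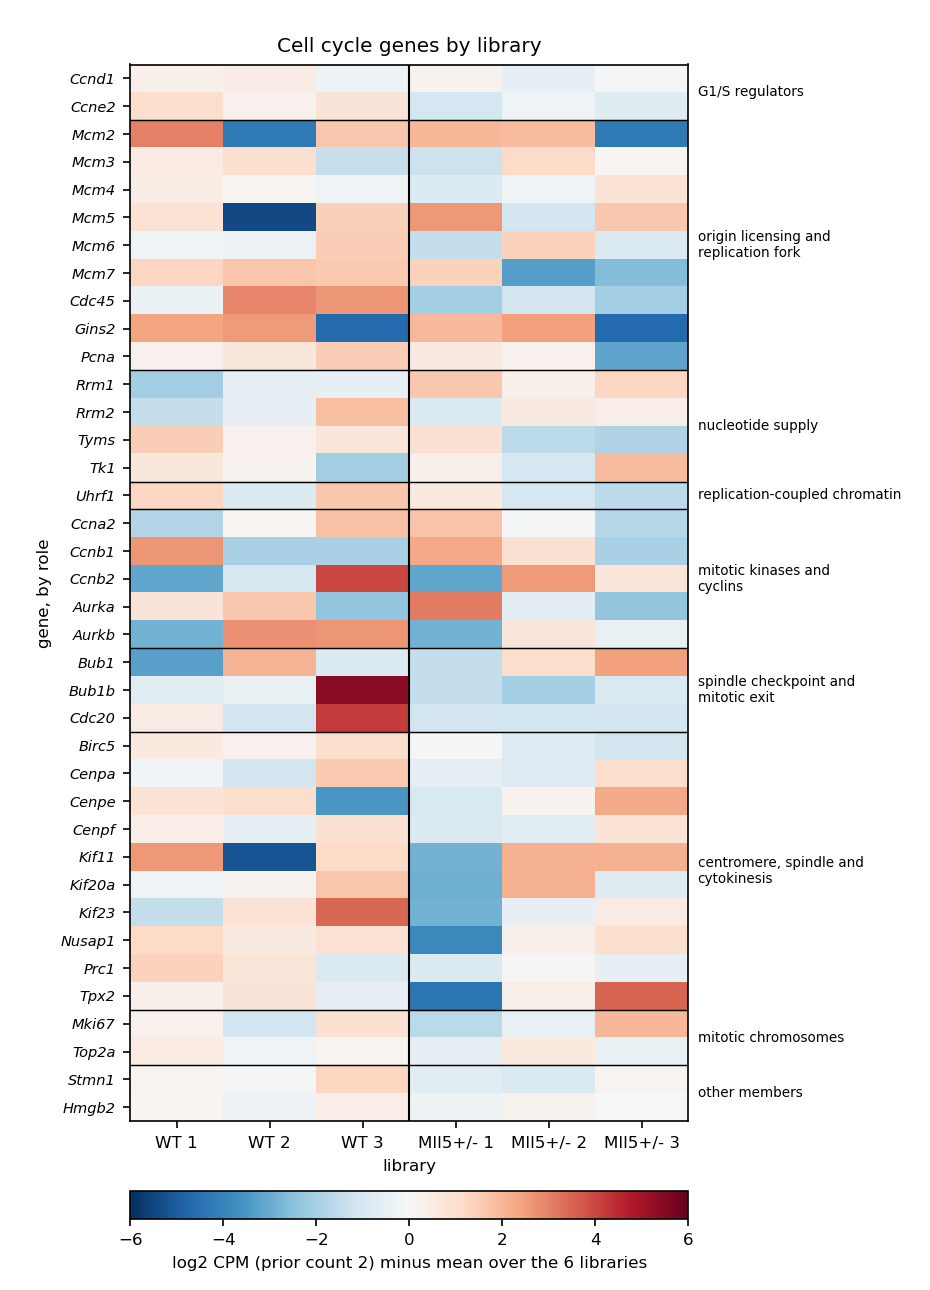
Colour shows log2 CPM (prior count 2) of each of the 38 matched genes (rows, by role) in each library (columns) minus its mean over the 6 libraries, with the genotypes parted by the vertical line. For some genes the darkest cell lies in a single library, such as Bub1b and Cdc20 in WT replicate 3 and Nusap1 and Tpx2 in Mll5+/- replicate 1. Others, such as Mcm2 and Gins2, are dark blue in 1 library of each genotype.

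Among the cyclins and kinases of mitosis, Ccna2 (cyclin A2, active from S phase to early mitosis) had 1.55, 5.89 and 18.6 CPM under the WT label and 17.99, 4.92 and 1.61 CPM under the Mll5+/- label. Both genotypes covered nearly the same range, with a log2 fold change of -0.09 (SE 1.10). Ccnb2, a B-type cyclin, had 0, 7 and 315 counts against 0, 111 and 22 counts. Ccnb1, the main cyclin of mitotic entry, had at most 43 counts in any library and 0 in 3 of the 6. Aurkb, the kinase of the chromosomal passenger complex, had 0, 94 and 97 counts against 0, 24 and 7 counts, and Aurka, the kinase of the spindle poles, between 0 and 84 counts. Replicate 1 of each genotype had no count of Ccnb2 or Aurkb, although both held counts of Ccna2.

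The spindle checkpoint delays anaphase until all chromosomes are attached. Its kinase-like component Bub1b had 3, 4 and 392 counts under the WT label and 1, 0 and 2 counts under the Mll5+/- label. Cdc20, which activates the anaphase-promoting complex once the checkpoint is satisfied, had 4, 0 and 91 counts and no count in any library labelled Mll5+/-. Almost all counts of both genes were therefore in WT replicate 3, neither passed the filter, and no fold is given. Without the filter, edgeR gave an unadjusted p = 0.0303 for Bub1b and 0.054 for Cdc20, both with an adjusted p = 0.97498. Bub1, the partner kinase, had 0, 78 and 10 counts against 5, 43 and 85 counts, with its highest level in Mll5+/- replicate 3.

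At the centromere and spindle, 10 genes were measured. Birc5, survivin, a subunit of the chromosomal passenger complex, had 7.4002, 5.89 and 10.2 CPM under the WT label and 4.69, 2.84 and 2.27 CPM under the Mll5+/- label. It was the 1 tested mitotic gene whose genotypes did not overlap (log2 fold change -1.26, SE 0.853, edgeR unadjusted p = 0.174). Cenpf, a large protein of the outer kinetochore, had 17.98, 8.93 and 26.02 CPM against 7.53, 8.36 and 24.1 CPM. Cenpa, the histone variant that marks centromeres, had 5.602, 2.85 and 18.9 CPM against 4.06, 3.62 and 12.996 CPM. For these 2 genes, replicate 3 of each genotype was the highest, and the genotypes overlapped.

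Nusap1, which bundles spindle microtubules, had 35.1, 22.7 and 28.6 CPM under the WT label and 0.986, 18.9 and 30.6 CPM under the Mll5+/- label. Tpx2, the activator of Aurora A on the spindle, had 46, 71 and 31 counts against 0, 57 and 382 counts. In both genes Mll5+/- replicate 1 was the lowest library and Mll5+/- replicate 3 the highest or second highest. The log2 fold changes were -0.78 (SE 0.915, edgeR unadjusted p = 0.419) for Nusap1 and 1.80 (SE 1.80) for Tpx2. In limma-voom, Nusap1 had an unadjusted p = 0.0432 and an adjusted p = 0.958.

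The kinesin gene Kif11, whose motor pushes the spindle poles apart, had 411, 0 and 181 counts under the WT label and 8, 350 and 264 counts under the Mll5+/- label. Kif23, a motor of the central spindle, had 3, 23 and 169 counts against 0, 9 and 15 counts. Kif20a, which acts in cytokinesis, had 10, 16 and 52 counts against 0, 72 and 6 counts. Mll5+/- replicate 1 was at or near 0 for all 3 kinesins. Cenpe, a kinetochore motor, ran from 0.416 to 26.3 CPM and Prc1, which organises the central spindle, from 2.29 to 11.5 CPM, both with overlapping genotypes.

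Mki67 and Top2a are the transcripts most used to mark dividing cells. Mki67, which encodes the Ki-67 coat protein of mitotic chromosomes, had 29.2, 11.04 and 46.4 CPM under the WT label and 7.85, 17.9 and 96.5 CPM under the Mll5+/- label. Both the lowest and the highest library were labelled Mll5+/- (log2 fold change 0.50, SE 0.919, edgeR unadjusted p = 0.604). Top2a, topoisomerase II alpha, had 40.6, 24.6 and 31.6 CPM against 19.4, 42.5 and 20.7 CPM, with a log2 fold change of -0.23 (SE 0.443). Mll5+/- replicate 3, the highest library for Mki67, was the second lowest for Top2a. Hmgb2, a chromatin protein of proliferating cells, had 29.2, 21.2 and 35.5 CPM against 21.6, 31.4 and 26.3 CPM, and Stmn1, a microtubule-destabilising protein, ran from 2.18 to 10.03 CPM. The 95% interval of Hmgb2 ran from -1.01 to 0.78, and that of Top2a from -1.23 to 0.78, both crossing 0.

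To set replication against mitosis in each library, the deviation of each gene's log2 CPM from its mean over the 6 libraries was averaged over the 15 replication and over the 20 mitotic genes. The replication mean was 0.60, -0.15 and 0.42 under the WT label and 0.29, -0.11 and -1.04 under the Mll5+/- label. The mitotic mean was -0.08, -0.10 and 0.99 against -1.26, 0.19 and 0.26. WT replicate 3 was thus above the mean for both, Mll5+/- replicate 1 was low in mitotic genes alone and Mll5+/- replicate 3 low in replication genes alone. Replication minus mitosis was 0.67, -0.06 and -0.57 against 1.55, -0.30 and -1.29, with the 2 extremes both labelled Mll5+/-. Summed over genes, the level of the 15 replication genes was 193, 173 and 214 CPM under the WT label and 175, 168 and 146 CPM under the Mll5+/- label. That of the 20 mitotic genes was 181, 113 and 229 CPM against 73.1, 134 and 255 CPM, a wider span in both genotypes.

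Between genotypes, the replication mean differed by -0.57 and the mitotic mean by -0.54. Their difference was -0.03, while the SD of replication minus mitosis was 0.627 under the WT label and 1.45 under the Mll5+/- label (n = 3 each). No p is given, since the genes of these means were chosen. Leaving out Mll5+/- replicate 1 moved the difference to -0.81, and leaving out Mll5+/- replicate 3 to 0.61. The mitotic mean alone differed by -0.06 without Mll5+/- replicate 1 and by -0.19 without WT replicate 3, and the replication mean by -0.21 without Mll5+/- replicate 3 and by -0.88 without Mll5+/- replicate 1. Over the tested genes alone, the differences were -0.37 for replication and -0.31 for mitosis.

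**Figure D5:**
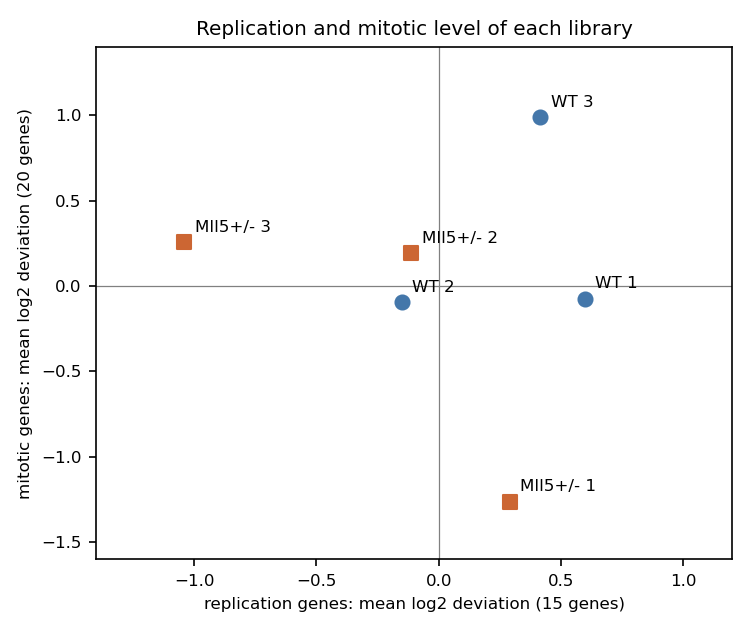
Mean log2 deviation of 15 replication genes (horizontal axis) and of 20 mitotic genes (vertical axis), 1 point per library, circles labelled WT and squares labelled Mll5+/-. Mll5+/- replicates 1 and 3 lie at opposite ends, at 0.29 and -1.26 and at -1.04 and 0.26.

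Counted gene by gene, 8 of the 20 mitotic genes had their highest level in WT replicate 3, where 18.8% of all tested genes peaked. Bub1b and Cdc20, which did not pass the filter, are among the 8 and the 20, while the shares given cover tested genes only. In Mll5+/- replicate 1, 3 of the 20 were above their own mean, beside 10 to 14 in each of the other libraries and 53.9% of all tested genes in that library. The library means therefore rested on several genes, but zeros weighed on them: 6 mitotic genes were without a count in Mll5+/- replicate 1 and 2 or 3 in each other library. Over all 38 genes, 8 had no count in at least 1 library and at least 100 counts in another (21.1%, beside 11.99% of all listed genes). These were Mcm2, Mcm5, Gins2, Ccnb2, Bub1b, Kif11, Kif23 and Tpx2. The median biological coefficient of variation was 85.1% for the 35 tested genes and 58.7% for all tested genes, and the median level was 7.92 CPM for the 38 matched genes beside 14.4 CPM for all listed genes.

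Wider lists of the same pathway were looked at next. Of other genes of the replication machinery, 46 of 53 were tested, and 3 had an unadjusted p under 0.05, all at higher levels under the Mll5+/- label (background 1.36%). Dna2, a helicase and nuclease that trims Okazaki fragments, had 8.24, 6.504 and 0.416 CPM under the WT label and 22.7, 26.5 and 42.1 CPM under the Mll5+/- label. Wdhd1, which ties the helicase to polymerase alpha, had 22.3, 12.2 and 19.99 CPM against 28.4, 38.3 and 62.4 CPM. The genotypes of Dna2 and Wdhd1 did not overlap.

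Their log2 fold changes were 2.59 (SE 0.914, edgeR unadjusted p = 0.02) for Dna2 and 1.24 (SE 0.445, unadjusted p = 0.0214) for Wdhd1, both with an adjusted p = 0.9995. DESeq2 gave them adjusted p-values of 0.379 and 0.857. The unadjusted p in edgeR was 0.0556 for Dna2 without Mll5+/- replicate 3, and for Wdhd1 0.0771 without WT replicate 2 and 0.0969 without Mll5+/- replicate 3. In this list 6 genes were at non-overlapping higher levels (4.68% of all tested genes were) and 2 at lower ones (4.64%), with a median log2 fold change of 0.09. Of its genes of highest CPM, Mcmbp, which binds the MCM ring, had 1344, 1269 and 1149 CPM against 1414, 1372 and 1627 CPM (log2 fold change 0.23, SE 0.146), and Top1 and Top2b, topoisomerases that relax DNA, had 0.07 (SE 0.263) and 0.12 (SE 0.235). The genotypes of Mcmbp did not overlap either, while those of Top1 and Top2b did. Dna2 and Wdhd1 are named for their p and Mcmbp, Top1 and Top2b for their CPM, so the sizes of their log2 fold changes are not compared.

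The other lists held no gene with an unadjusted p under 0.05 in edgeR (DESeq2 had 1, among other mitotic genes). Among other mitotic genes, 51 of 61 were tested, with 24 positive and 27 negative log2 fold changes and a median of -0.05. Their mean deviation was 0.59, -0.28 and 0.37 under the WT label and -1.04, 0.32 and 0.04 under the Mll5+/- label. Mll5+/- replicate 1 was again the lowest, as in the 20 mitotic genes above, while the highest was WT replicate 1 and not WT replicate 3. The genes of highest CPM, Zw10, Ckap5 and Smc4, had log2 fold changes of 0.17 (SE 0.263), 0.03 (SE 0.214) and 0.21 (SE 0.320).

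CDK inhibitors, which hold cells out of the cycle, were tested for 6 of 7 genes, with a median log2 fold change of 0.44. Cdkn1b, the quiescence inhibitor p27, had 17.5, 447 and 651 CPM under the WT label and 489, 544 and 19.9 CPM under the Mll5+/- label. Each genotype thus had 1 library with a far lower level than its other two. Cdkn1a, the p53 target p21, had 34.0, 37.2 and 16.6 CPM against 18.9, 39.1 and 49.0 CPM, and Cdkn1c, the inhibitor p57, ran from 6.11 to 12.4 CPM.

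Other G1 cyclins, CDKs and RB and E2F genes were tested for 26 of 28, with a median log2 fold change of -0.19 and 17 negative. Cdk6, the G1 kinase that pairs with cyclin D, had 2146, 1761 and 1970.4 CPM under the WT label and 2020.8, 1788 and 2229 CPM under the Mll5+/- label. Its log2 fold change was 0.04 (SE 0.147). Ccnh and Rbbp4 had -0.40 (SE 0.303) and -0.45 (SE 0.250). Checkpoint and DNA damage genes were tested for 19 of 21, with a median of 0.08, and Trp53, Mdm2 and Mdm4, the p53 gene and its inhibitors, had log2 fold changes of 0.02 (SE 0.297), 0.08 (SE 0.267) and 0.10 (SE 0.331). In these lists the genotypes overlapped for every gene named.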

How the data were processed

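Each library holds RNA of microglia sorted from 1 mouse, taken up in TRIzol and amplified by SMART-seq before a transposase-based library kit, per the labels' protocols. The authors deposited whole-number counts per gene symbol for 6 libraries, with gene spans on mm39. FastQC, STAR, StringTie and DESeq2 are named in the submitters' processing notes. The sources used here give no version, order, counting step or strand, and reads of overlapping genes cannot be told apart (11 of the 38 matched genes overlap another listed gene).

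Genes were kept with filterByExpr by genotype (minimum count 10, minimum total 15), which left 10832, and library sizes were scaled by TMM. All p-values are two-sided. They come from the quasi-likelihood test of edgeR (edgeR 4.0.16, R 4.3.3), with robust estimation, over all 6 libraries, with Benjamini-Hochberg adjustment over all tested genes and a threshold of 0.05. DESeq2 1.42.0, limma-voom with sample weights (limma 3.58.1), other size factors, filters and prior counts, and leaving out each library were alternatives. The script was tested on simulated data. An SE is the fitted coefficient over the root of its F. At this depth 3 counts are between 0.104 and 0.142 CPM, which covers counting error only, since reads amplified without molecular identifiers are no independent molecules.

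The members and lists were chosen with earlier results of these data known. Values per library are given for genes with an unadjusted p under 0.05, without overlap, with a mean of at least 10 CPM or without counts in a genotype, and for the highest and lowest gene of each role. Further members were added after their values were seen. Of wider lists, genes with an unadjusted p under 0.05 and the 3 of highest CPM are named; 1 such gene is not reported here.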

Additional observations from a re-analysis of the deposited data

How the results depend on the processing

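None of the members was called under any alternative run. Over all genes, edgeR called 0, DESeq2 called 18, and between 0 and 2 were called when a library was left out. Between 1 and 3 members had an unadjusted p under 0.05 when a library was left out, against 2 with all libraries. The median log2 fold change of mitotic genes ran from -0.94 (without Mll5+/- replicate 3) to 0.0698 (without WT replicate 3) over the left-out libraries and that of replication genes from -0.91 to -0.44. The difference in replication minus mitosis ran from -0.81 to 0.61 over the left-out libraries and was 0.02 with a prior count of 0.5 and -0.06 with 5. With DESeq2's size factors, total counts without TMM or a threshold of 0.10, edgeR still called 0 genes. No single named gene reversed while past an unadjusted p of 0.05. Members not past it could change sign between edgeR and limma-voom. Examples are Tpx2 (log2 fold change 1.80 and -2.15), Mcm2 (-0.53 and 2.09) and Mki67 (0.50 and -0.21). Rrm1 (2.04 and 2.09) and Ccne2 (-1.38 and -1.32) kept their sign. No paired analysis was possible because the labels number the mice separately and the replicate numbers were given in accession order. With 3 libraries a genotype, an exact permutation test of a single gene cannot go below p = 0.1.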
